A study of Homo sapiens with 4 samples.

Results

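The S100 genes described here are 9 of the 47251 genes listed in each deposited table: S100A2, S100A4, S100A6, S100A10, S100A11, S100A13, S100A14, S100A16 and S100P. They were selected by gene name as the S100 calcium-binding proteins of epithelial cells. S100A2 was chosen from its measured values in these same libraries, because it varied as basal epithelial genes did, and the other 8 were taken as a contrast. Its level and folds are therefore a description, and nothing is tested on them.

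S100 proteins are small calcium-binding proteins of vertebrates. Most form dimers, bind calcium through a pair of EF-hand loops, and then expose a surface that grips a target protein. Many of the genes lie together in the epidermal differentiation region of chromosome 1. In epithelia S100A2 is known from the basal layer of stratified tissue, where the transcription factor p63 acts on its gene, and S100A14 and S100A16 from cells that line surfaces.

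RNA was measured by sequencing in HCT116, an established human colon cancer cell line. There were 4 groups with 1 library each. In the plasmid experiment cells were transfected with 2 µg of pCMV-entry plasmid carrying TTC22V1 (overexpression), set against the same amount of the empty vector. In the siRNA experiment they received 3 siRNAs to TTC22 together at 100 nM (knockdown), set against scramble siRNA at 100 nM. All RNA was collected 48 hours later, and these were transient transfections of cultured cells. TTC22 stood at 24215 FPKM with overexpression and 4.46 FPKM with vector. It stood at 6.54 FPKM with knockdown and 10.7 FPKM with scramble, so the knockdown library held 0.613 of its control's level, and the vector library lay below the knockdown library. TTC22 thus marks the overexpression library, and its levels do not check the other 3 labels. In S100A2 and in the keratins KRT5, KRT14, KRT6A and KRT17 the libraries labelled vector and knockdown were alike, as were those labelled overexpression and scramble. With 1 library per group, an exchange of libraries, RNA from other cells and an effect of treatment cannot be told apart in these genes. Other basal keratins differed: KRT15 and KRT16 were higher in both siRNA libraries than in both plasmid libraries. KRT6B was at 0.756 FPKM with vector but at 0.0888 FPKM with knockdown. FPKM counts fragments per length of transcript and per size of library. With 1 library per group there is no replicate error and no test, and every difference below describes these libraries.

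A gene was called measured in a comparison if its mean over the compared libraries was at least 1 FPKM, and higher or lower if its log2 fold of FPKM + 1 was at least 1 in size, which is 2-fold. All genes summed to 188638 FPKM in the overexpression library, 192908 FPKM in its vector control, 205734 FPKM after knockdown and 181102 FPKM in its scramble control. Low values of genes with a single transcript clustered at a step that would stand for about 51.2, 47.8, 50.3 and 45.6 M fragments in the same order. Between 22.2 and 25.4% of the low values were whole multiples of the step to within 0.05, so these depths are rough. Of 11 colon epithelial markers 6 were at 1 FPKM or more in every library, among them EPCAM, KRT8, KRT18 and KRT19, while CDX1, VIL1, LGALS4, CDH17 and KRT20 stayed at 0.397 FPKM or less. Of 7 leukocyte markers only the lysosomal gene CD68 reached 1 FPKM, and PTPRC and CD3E were at or near 0.

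The promoters below show what precedes S100A2, its closest relative in protein sequence (S100A4), a member without a TATA match (S100A10) and the member with almost no RNA (S100P). Each is the 250 bases before an RNA start in RefSeq (GRCh38.p14), 5′ to 3′ on the gene's own strand. Capitals mark exact matches, on either strand, to the TATA box (TATAAA), the AP-1 site (TGACTCA) or the GC box (GGGCGG). S100A2 lies at chr1:153565845-153566094, minus strand. S100A4 lies at chr1:153545807-153546056, minus strand. S100A10 lies at chr1:151993860-151994109, minus strand. S100P lies at chr4:6693628-6693877, plus strand. The S100A2 and S100A4 windows lie within the annotated extents of their genes, so other annotated transcripts begin upstream of them.
S100A2: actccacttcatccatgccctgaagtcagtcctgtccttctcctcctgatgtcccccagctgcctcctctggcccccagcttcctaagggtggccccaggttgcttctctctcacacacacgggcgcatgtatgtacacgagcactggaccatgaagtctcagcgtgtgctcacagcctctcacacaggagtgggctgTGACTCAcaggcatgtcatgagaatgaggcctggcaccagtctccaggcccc
S100A4: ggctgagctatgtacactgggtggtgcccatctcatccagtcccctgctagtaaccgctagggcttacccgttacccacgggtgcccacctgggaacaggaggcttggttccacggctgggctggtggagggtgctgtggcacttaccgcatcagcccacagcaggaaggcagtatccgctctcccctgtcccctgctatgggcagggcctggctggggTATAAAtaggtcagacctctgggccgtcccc
S100A10: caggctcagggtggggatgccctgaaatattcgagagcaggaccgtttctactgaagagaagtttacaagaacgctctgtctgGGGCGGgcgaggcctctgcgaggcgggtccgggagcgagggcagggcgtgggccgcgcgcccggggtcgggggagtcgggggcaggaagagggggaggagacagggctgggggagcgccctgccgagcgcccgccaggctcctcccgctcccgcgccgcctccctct
S100P: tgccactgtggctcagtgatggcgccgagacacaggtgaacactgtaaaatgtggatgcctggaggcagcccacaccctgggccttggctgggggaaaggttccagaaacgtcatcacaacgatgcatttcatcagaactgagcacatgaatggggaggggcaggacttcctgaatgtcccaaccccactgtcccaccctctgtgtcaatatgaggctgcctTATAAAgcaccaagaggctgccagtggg

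In S100A2 the AP-1 letters begin 52 bases before the RNA start shown. A second RefSeq start of the gene, with its window at chr1:153563888-153564137, has no match to any of the 3 motifs. All 250 bases of that second window lie in annotated exons. The TATA letters begin 31 bases before the start in S100A4 and 28 bases before it in S100P, and the GC box of S100A10 begins 167 bases before its start. RefSeq held 13 start windows for the 9 members. The AP-1 letters were in 1 of the 13, against 4.20% of 35116 RefSeq windows of the same length. The TATA letters were in 3 of the 13, against 10.7% of all windows, and the GC box in 5, against 42.6%. A match describes the letters in a window and no binding was measured.

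By level in FPKM, the members covered a wide range and kept most of their order. S100A6 led in every library, followed by S100A11 and S100A4 in vector and scramble, and S100A2 and S100P always came last. The sum over the members was 1416 FPKM with overexpression, 1424 FPKM with vector, 1654 FPKM with knockdown and 1851 FPKM with scramble. That was between 0.738 and 1.02% of the library sums. S100A6, S100A11 and S100A4 together gave 82.0% of the members' sum with overexpression, 85.0% with vector, 72.0% with knockdown and 77.1% with scramble. S100A2 gave 0.237, 1.03, 0.978 and 0.113% in the same order.

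**Figure D1:**
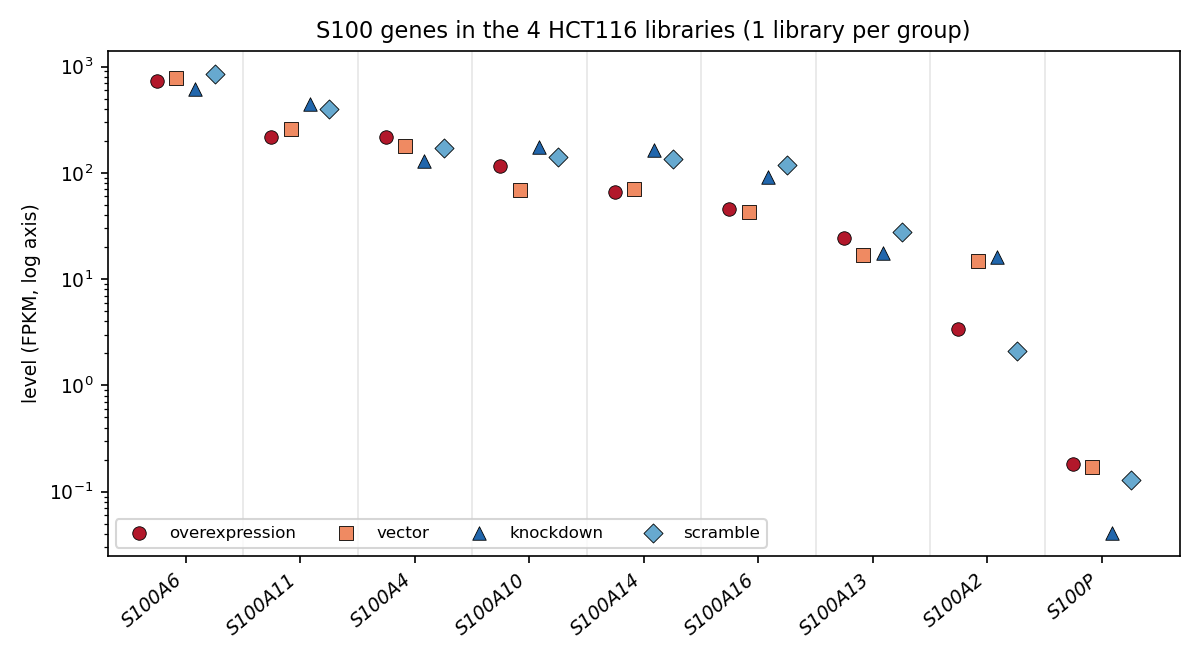
Level of each S100 gene in FPKM (vertical axis, log scale) by gene (horizontal axis, ordered by mean level), with 1 point per library. S100A6 lies between 619 and 856 FPKM in all 4 libraries, while S100A2 lies at 14.7 and 16.2 FPKM in vector and knockdown and at 3.36 and 2.10 FPKM in overexpression and scramble.

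S100A2 (ENSG00000196754, chromosome 1, 153561108 to 153567890, minus strand, hg38) encodes an S100 protein known from the nucleus as well as the cytoplasm. Its level was 3.36 FPKM with overexpression and 14.7 FPKM with vector. In the siRNA experiment it was 16.2 FPKM with knockdown and 2.10 FPKM with scramble. Vector and knockdown were thus high and close together, and overexpression and scramble were low. At the steps given above these values stand for about 168 fragments with overexpression, 686 with vector, 795 with knockdown and 93.5 with scramble, if its main transcript of 977 bases was the one counted.

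The log2 fold of S100A2 was −1.85 for overexpression over vector, a ratio of 0.229, and −1.64 relative to the median of all measured genes, which was −0.21. For knockdown over scramble it was 2.47, a ratio of 7.70. The 2 control libraries also differed, with a log2 difference of −2.34 for scramble over vector (ratio 0.143). The gap between the controls was larger than the fold in the plasmid experiment, so a change with TTC22 cannot be told apart from a high vector or a low scramble library. In bulk RNA, fewer cells of a type and less RNA per cell cannot be told apart either.

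Of the 8 measured members S100A2 alone was called in the treated comparisons: lower with overexpression and higher with knockdown. Over all 10191 measured genes of the plasmid comparison 2.08% were higher (212 genes) and 4.10% lower (418 genes), or 269 higher and 290 lower after centring on the median. In the siRNA comparison 2.57% of 9744 genes were higher (250) and 2.19% lower (213). These became 258 higher and 206 lower after centring on the median. With values rescaled to the library sum without TTC22 they became 208 higher and 287 lower. Genes with few exons were called more often: 24.2% of those with under 4 exons against 4.43% of those with 4 or more in the plasmid comparison, and 19.3% against 3.33% in the siRNA comparison. Genes were classed here by the largest exon number among their annotated transcripts. S100A2 has up to 4 exons by that number, but 3 in its main transcript, so its class depends on the transcript taken. As S100A2 was chosen for these values, its calls are not read against the background.

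In size, 105 of the 418 lower genes of the plasmid comparison had a fold at least as low as that of S100A2, itself included, and 51 of the 250 higher genes of the siRNA comparison one at least as high. Both calls, lower with overexpression and higher with knockdown, were shared by 43 genes. These were 10.3% of the genes lower with overexpression, where 2.57% of all measured genes were higher with knockdown. They were 17.2% of those higher with knockdown, where 4.10% of all measured genes were lower with overexpression. As S100A2 was chosen for these values, its place among the called genes is a description only.

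**Figure D2:**
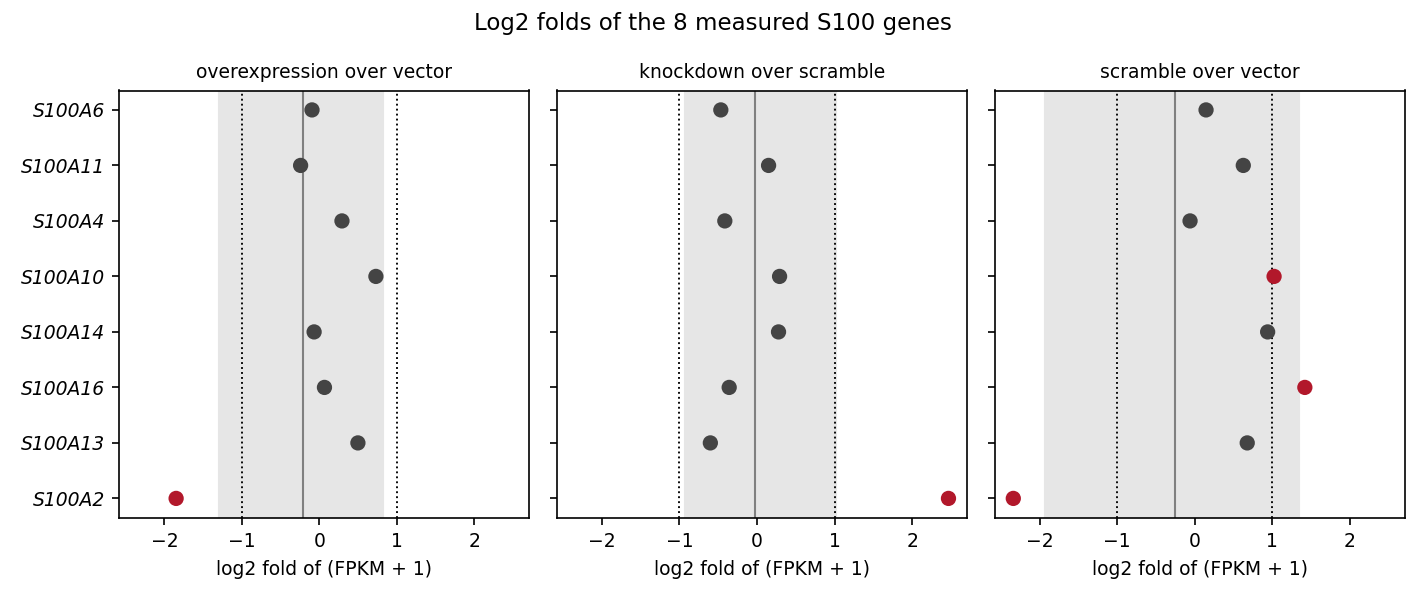
Log2 fold of FPKM + 1 (horizontal axes) of the 8 measured S100 genes (vertical axis) in 3 comparisons, with dotted lines at a 2-fold difference, a grey line at the median of all measured genes and a grey band over their central 95%. Red points pass 2-fold: S100A2 at −1.85, 2.47 and −2.34, and S100A10 and S100A16 at 1.02 and 1.42 between the controls.

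The basal epithelial genes that S100A2 was grouped with were set beside it, as a description only. They come from a list of 25 genes without S100A2. The list was chosen with earlier results of these data known, so its counts are no test against all genes. In the plasmid comparison 18 were measured, of which 8 were lower and 1 higher, and the list median was −0.75, beside 4.10% lower and 2.08% higher over all measured genes. Of the 8, LAMA3, a laminin chain, went to −0.84 relative to the median of all genes and would not pass. In the siRNA comparison 18 were measured, of which 6 were higher and 0 lower, with a median of 0.50, beside 2.57% higher and 2.19% lower over all. For scramble over vector 7 of 18 were lower and 4 higher, beside 14.1% lower and 4.99% higher over all, so the controls differed in this list too. The list summed to 259 FPKM with overexpression, 659.7 FPKM with vector, 1021 FPKM with knockdown and 639 FPKM with scramble. At 0 were CLCA2 and IVL with overexpression, IVL with knockdown, and TP63, DSG3 and IVL with scramble. The part of these genes in the S100A2 result was not tested.

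KRT14 and KRT5, the keratin partners of basal cells, followed the pattern in a more extreme form. KRT14 stood at 0.0663 FPKM with overexpression and 41.7 FPKM with vector, and at 22.7 FPKM with knockdown and 0.111 FPKM with scramble. KRT5 stood at 0.0227 FPKM with overexpression and 15.3 FPKM with vector, and at 15.6 FPKM with knockdown and 0.00767 FPKM with scramble. S100A2 differed from these keratins in that it was still at 3.36 and 2.10 FPKM in the libraries where they were near 0. TP63, which encodes p63, stood at 0.00785 FPKM with overexpression and 2.08 FPKM with vector, and at 0.124 FPKM with knockdown and 0 with scramble. TP63 was above 1 FPKM with vector alone, and its level with knockdown was above those with overexpression and scramble. The part of p63 in the S100A2 level was not tested.

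COL17A1, a collagen of basal cells, was at 0.358 FPKM with overexpression and 4.42 FPKM with vector, and at 3.33 FPKM with knockdown and 0.570 FPKM with scramble. KRT6A, KRT17 and the 1-exon gene SFN (stratifin) were likewise lower with overexpression and higher with knockdown, as was COL17A1. SFN was at 8.16 FPKM with overexpression and 274 FPKM with vector, and at 262 FPKM with knockdown and 8.66 FPKM with scramble. FGFBP1, a carrier of fibroblast growth factors, went the other way in the plasmid experiment, at 4.62 FPKM with overexpression and 0.469 FPKM with vector, and was at 12.7 FPKM with knockdown and 19.3 FPKM with scramble.

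Likeness to S100A2 was measured as the Euclidean distance of log2(FPKM + 1), less each gene's own mean, over the 4 libraries. Among 5179 named genes that averaged 5 FPKM or more and were above 0 in every library, the nearest was TNFSF9, the ligand of the costimulatory receptor CD137, at a distance of 0.65. It stood at 3.03 FPKM with overexpression and 17.9 FPKM with vector, and at 27.7 FPKM with knockdown and 3.62 FPKM with scramble. It was followed by HSPA13, an HSP70-type protein (0.93), the proteasome assembly chaperone PSMD10 (0.95), the mitochondrial ribosomal protein MRPS21 (0.95), the heterochromatin protein CBX1 (1.02) and RAP1GAP2, which acts on the GTPase RAP1 (1.06). With 4 libraries, many genes can lie close by this measure.

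**Figure D3:**
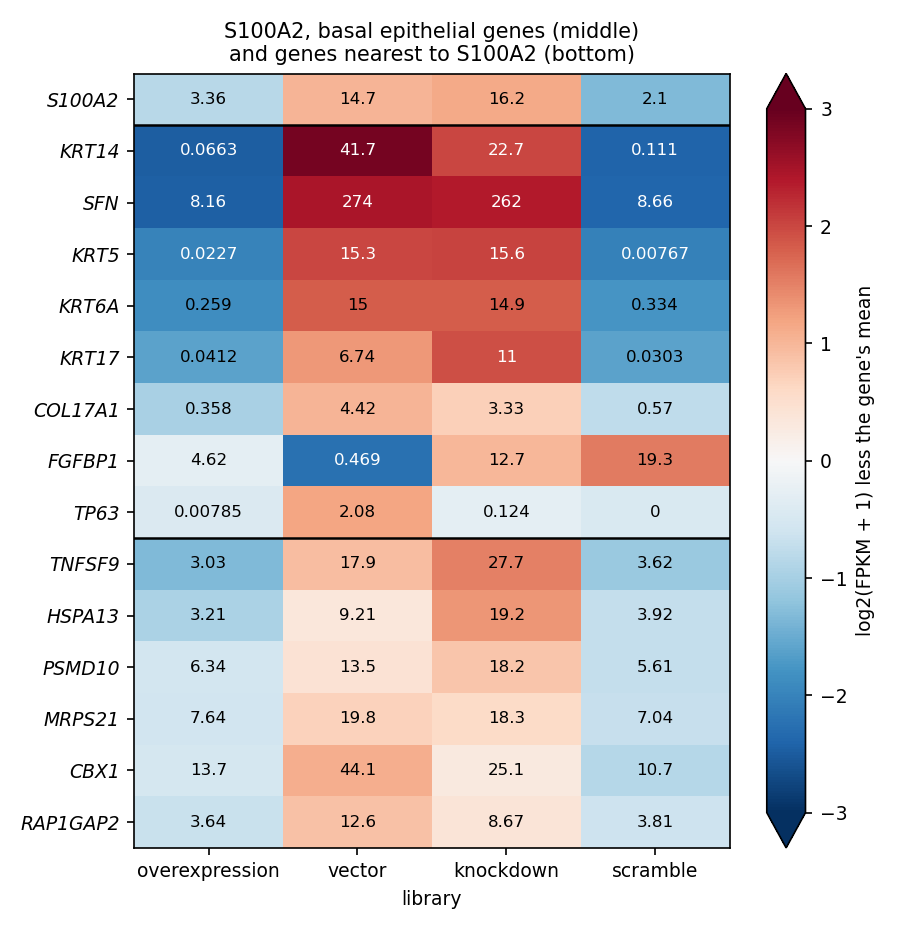
Levels of S100A2 (top row), 8 basal epithelial genes (middle) and the 6 genes nearest to S100A2 (bottom) in the 4 libraries (columns), with the FPKM value printed in each cell and colour giving log2(FPKM + 1) less the gene's mean. Vector and knockdown are the warm columns for S100A2 (14.7 and 16.2 FPKM) and for KRT14 (41.7 and 22.7 FPKM), while FGFBP1 departs from them at 0.469 FPKM in vector.

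The other members did not take part in this pattern by the size rule. All 7 other measured members stayed within 2-fold in both treated comparisons, with log2 folds from −0.24 (S100A11) to 0.73 (S100A10) for overexpression over vector and from −0.60 (S100A13) to 0.29 (S100A10) for knockdown over scramble. Over all measured genes 2.08% were higher and 4.10% lower in the plasmid comparison, and 2.57% and 2.19% in the siRNA comparison. Most genes thus stayed within 2-fold, as these 7 did. The median over the 8 measured members was 0.00 in the plasmid comparison and −0.10 in the siRNA comparison, beside medians of −0.21 and −0.02 over all measured genes. S100A4, S100A6 and S100A2 are the most alike in protein, yet S100A4 and S100A6 did not pass the rule.

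S100A6 (calcyclin, which binds the ubiquitin ligase adapter CACYBP; ENSG00000197956) was at 724 FPKM with overexpression and 773 FPKM with vector, and at 619 FPKM with knockdown and 856 FPKM with scramble. It ranked between 17 and 37 among all genes listed in a library. Its log2 folds were −0.10 and −0.47, and the first turned to 0.11 relative to the median of all genes. CACYBP stood at 24.9 FPKM with overexpression and 24.3 FPKM with vector, and at 12.4 FPKM with knockdown and 10.2 FPKM with scramble.

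S100A4 (ENSG00000196154), known as a metastasis-associated protein that binds the non-muscle myosin heavy chain MYH9, was at 218 FPKM with overexpression and 178 FPKM with vector, and at 128 FPKM with knockdown and 171 FPKM with scramble. It was highest with overexpression and lowest with knockdown, which is the reverse of the S100A2 direction, but at log2 folds of 0.29 and −0.42. MYH9 stood at 48.7 FPKM with overexpression and 60.6 FPKM with vector, and at 51.5 FPKM with knockdown and 55.6 FPKM with scramble.

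S100A13 (ENSG00000189171), which takes part in the release of fibroblast growth factor FGF1 from cells, was at 24.1 FPKM with overexpression and 16.8 FPKM with vector, and at 17.8 FPKM with knockdown and 27.5 FPKM with scramble. Its log2 folds were 0.50 (0.70 relative to the median) and −0.60, opposite in sign to those of S100A2 in both experiments and below the rule. Vector and knockdown were its low libraries and overexpression and scramble its high ones.

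S100A10 (ENSG00000197747), which has lost the ability to bind calcium and works in a complex with annexin A2, was at 116 FPKM with overexpression and 69.3 FPKM with vector, and at 174 FPKM with knockdown and 142 FPKM with scramble. Its log2 fold with overexpression, 0.73 or 0.94 relative to the median, was the nearest to the rule among the 7. ANXA2, the gene of that partner, stood at 254 FPKM with overexpression and 239 FPKM with vector, and at 267 FPKM with knockdown and 225.0 FPKM with scramble. The ratio of ANXA2 to S100A10 FPKM was therefore 2.20 with overexpression, 3.44 with vector, 1.54 with knockdown and 1.58 with scramble. It was highest in the vector library, where S100A10 was lowest.

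S100A11 (ENSG00000163191), which binds annexin A1, was at 218 FPKM with overexpression and 258 FPKM with vector, and at 443 FPKM with knockdown and 399.5 FPKM with scramble. The annotation holds 8 processed pseudogenes of S100A11, none of them listed in the tables, so its reads are uncertain. S100A14 (ENSG00000189334), a member that binds calcium poorly, was at 66.5 FPKM with overexpression and 69.8 FPKM with vector, and at 164 FPKM with knockdown and 135 FPKM with scramble. S100A16 (ENSG00000188643), a widely expressed member, was at 45.3 FPKM with overexpression and 43.2 FPKM with vector, and at 91.4 FPKM with knockdown and 117 FPKM with scramble. For S100A11, S100A14 and S100A16 the experiment separated the libraries, and treatment within an experiment did not move them past the rule.

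S100P (ENSG00000163993, chromosome 4, 6693878 to 6697170, plus strand), which activates the membrane linker ezrin, was below the level called measured. It stood at 0.183 FPKM with overexpression and 0.172 FPKM with vector, and at 0.0409 FPKM with knockdown and 0.128 FPKM with scramble. For its transcript of 471 bases these are about 4.41, 3.86, 0.969 and 2.76 fragments in the same order, so no difference was detectable at this depth and no fold is given. EZR, which encodes ezrin, was at 715 FPKM with overexpression and 779 FPKM with vector, and at 1608 FPKM with knockdown and 1631 FPKM with scramble.

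Between the experiments, 4 of the 8 measured members (S100A10, S100A11, S100A14 and S100A16) were higher in both siRNA libraries than in both plasmid libraries, and 1 (S100A4) was lower in both. Over 10133 measured genes 24.5% lay above without overlap and 42.5% below. For scramble over vector the log2 differences were 1.42 for S100A16, 1.02 for S100A10, 0.94 for S100A14, 0.68 for S100A13, 0.63 for S100A11, 0.15 for S100A6 and −0.06 for S100A4. Thus 2 members were higher and S100A2 was lower, where 4.99% of 10214 genes were higher (510) and 14.1% lower (1440), or 847 higher and 901 lower after centring on the median of −0.25. Relative to that median S100A14 stood at 1.19 and would pass too. The nucleic acid transfected and any batch differ together between the experiments and cannot be told apart.

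Of the 9 members 8 lie on chromosome 1. S100A10 (151982915 to 151993859) and S100A11 (152032506 to 152047907) lie apart from the other 6, which sit within 96.8 kb. S100A11 is 1487 kb from those 6, and S100A10 is further away. All 8 are on the minus strand. From S100A6 the order of the members along the chromosome is S100A4, S100A2, S100A16, S100A14 and S100A13. Among the members S100A2 is therefore flanked by S100A4 and S100A16, neither of which passed the rule in a treated comparison. S100A16 and S100A14 are neighbours and both were higher in the siRNA libraries, as 24.5% of all measured genes were. So were the distant S100A10 and S100A11, but not S100A13, the other member next to S100A14. The ratio of S100A16 to S100A14 FPKM was 0.681 with overexpression, 0.620 with vector, 0.558 with knockdown and 0.871 with scramble.

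Some members overlap other genes, and the strand setting of the counting is not given in the sources used here. S100A4 shares 1930 bp with S100A3 on the same strand, and S100A13 shares 3435 bp with S100A1 on the opposite strand. S100A3 was between 1.27 and 2.21 FPKM and S100A1 between 0.281 and 0.409 FPKM, far below the members they overlap. Noncoding RNA genes overlap S100A6 (531 bp) and S100A11 (10269 bp) on the opposite strand and S100A13 (5029 bp) on the same strand. The highest level among these was 1.79 FPKM, with knockdown, for the gene at S100A6. S100A2 overlaps no annotated gene.

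**Figure D4:**
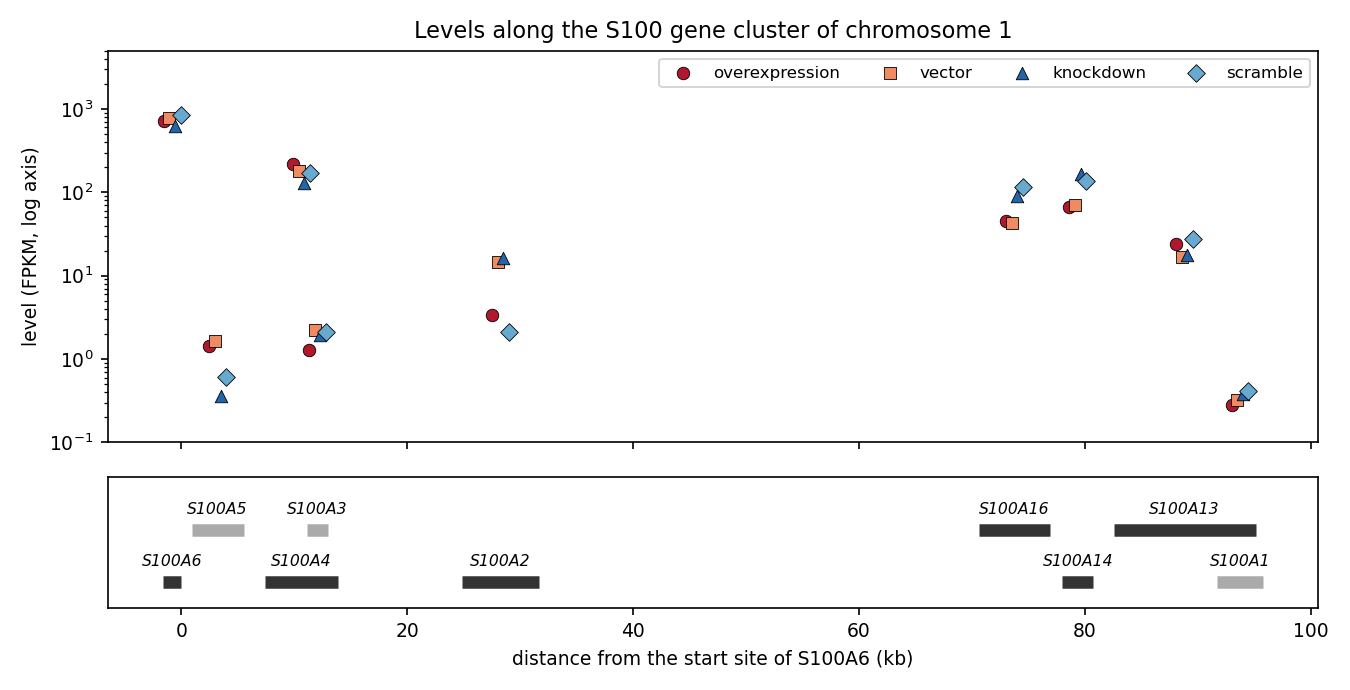
Upper panel: level in FPKM (vertical axis, log scale) of each S100 gene from S100A6 to S100A1 against its distance from the S100A6 start site in kb (horizontal axis). There is 1 point per library, with the 4 points of a gene spread slightly sideways. S100A7, S100A7A, S100A8, S100A9 and S100A12, on the other side of S100A6, are not drawn. Lower panel: extent of each gene, members in black and other S100 genes in grey. The points of S100A2 spread from 2.10 to 16.2 FPKM, while those of its flanking member S100A4 lie between 128 and 218 FPKM.

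The 9 proteins have 90 to 105 residues as translated from their main annotated transcripts. Over the 36 pairs the identity ranged from 25.6 to 61.9%, with a median of 35.3%. S100A2 and S100A4 were the closest pair, at 61.9%, followed by S100A4 and S100A6 at 51.1% and S100A2 and S100A6 at 48.9%. S100P was closest to S100A10, at 46.7%, and S100A14 had the lowest median identity to the others, at 29.1%. The closest relatives in protein, S100A2 and S100A4, had log2 folds of −1.85 and 0.29 for overexpression over vector and of 2.47 and −0.42 for knockdown over scramble.

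**Figure D5:**
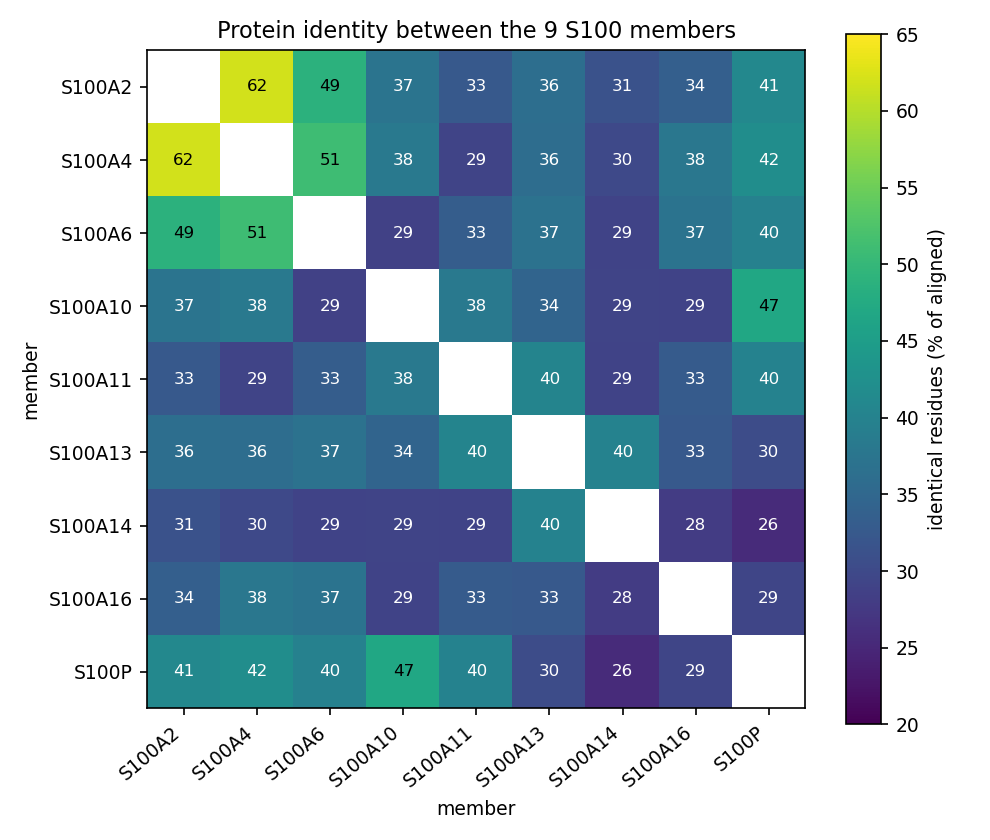
Identical residues as a percent of aligned residues for each pair of the 9 S100 proteins (rows and columns), with the value printed in each cell and given by colour. The brightest cell joins S100A2 and S100A4 (61.9%), and most other pairs lie near the median of 35.3%.

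The rest of the family was almost silent. Of 12 other S100 genes and relatives, 9 stayed below 1 FPKM in every library, at most at 0.409 FPKM, and S100A7A and S100Z were listed at 0 in all 4. The myeloid genes S100A8 and S100A9 reached no more than 0.0208 and 0.121 FPKM. S100A3, a protein of hair follicles, was at 1.27 FPKM with overexpression and 2.21 FPKM with vector, and at 1.96 FPKM with knockdown and 2.10 FPKM with scramble. S100A5 was at 1.42 FPKM with overexpression and 1.64 FPKM with vector, and at 0.357 FPKM with knockdown and 0.611 FPKM with scramble, and S100PBP, which binds S100P, stayed between 1.98 and 2.56 FPKM. None of the 3 measured in the plasmid comparison or the 2 measured in the siRNA comparison passed the rule.

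Known partners of S100 proteins did not pass it either. Of 28 listed, 22 were measured in each treated comparison and 0 were higher or lower, with medians of −0.13 with overexpression and −0.02 with knockdown. Over all measured genes 2.08% were higher and 4.10% lower in the plasmid comparison, and 2.57% and 2.19% in the siRNA comparison. ANXA1, the annexin that pairs with S100A11, was at 72.6 FPKM with overexpression and 61.2 FPKM with vector, and at 35.1 FPKM with knockdown and 19.7 FPKM with scramble, a log2 fold of 0.80 in the siRNA comparison. MYL9, a myosin light chain, was at 8.93 FPKM with overexpression and 12.2 FPKM with vector, and at 7.18 FPKM with knockdown and 9.54 FPKM with scramble. AHNAK, the large scaffold bound by the S100A10 and annexin A2 complex, was at 35.0 FPKM with overexpression and 36.2 FPKM with vector, and at 54.8 FPKM with knockdown and 51.3 FPKM with scramble.

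Neighbours of the cluster on chromosome 1 were mostly unexpressed. Of 27 such genes 18 stayed below 1 FPKM in every library, and 10 of them, among them the cornified envelope genes LOR, SPRR1A, SPRR3 and RPTN, were listed at 0 in all 4. Of 9 measured in the plasmid comparison 1 was lower and 0 higher, beside 4.10% lower and 2.08% higher over all genes. It was SNAPIN, a protein of vesicle fusion and lysosome transport, at 4.66 FPKM with overexpression and 16.8 FPKM with vector, a log2 fold of −1.65. With knockdown it stood at 9.15 FPKM and with scramble at 9.86 FPKM, so it did not follow S100A2 there. None of 7 measured in the siRNA comparison passed the rule. INTS3, a subunit of the Integrator complex, stayed between 2.37 and 3.36 FPKM, and CRTC2, a coactivator of CREB, between 8.10 and 10.8 FPKM.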

How the data were processed

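Polyadenylated RNA of HCT116 cells was sequenced in 4 libraries, 1 per group, as paired-end TruSeq libraries per the labels' protocols. STAR and hg38 are named, per the submitters' processing notes, without a version. No source names the program behind the values, its annotation, filters or strand setting. Values in the deposited tables were taken as FPKM computed by the authors. This unit was inferred, since values are not whole, sums differ between libraries, and value times length of single-transcript genes peaks at a common step. Fragment numbers per gene are rough, since the counted transcript is unknown and FPKM may use effective lengths. No count test or counting interval was possible. FPKM depend on library sum, and TTC22 takes part of it with overexpression.

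Log2 folds used a pseudocount of 1 FPKM, which understates changes of low genes, and genes averaging 1 FPKM or more in the compared libraries. Each treated library was compared with the control of its experiment, and the controls with each other. The members, lists, tests and alternatives were chosen with earlier results of these data known. Named are the 9 members, TTC22, and from each list up to 8 members past the rule and the 3 with the largest summed folds, plus the 6 genes nearest to S100A2. A gene that this rule names is not reported here. CACYBP, MYH9, ANXA2, EZR and AHNAK are named for their known pairing with a member, and other low or overlapping genes by their counts, after their values were seen. KRT15, KRT16 and KRT6B are named, also after their values were seen, as basal keratins that differ from the others. Clone-based names were left out. The lists are 12 other S100 genes, 28 partners, 27 cluster neighbours, 25 basal epithelial genes, 11 colon epithelial, 7 leukocyte (S100A8 and S100A9 among them, IVL being in the basal and neighbour lists), 5 fibroblast and 3 endothelial markers. Of the fibroblast markers only COL1A1 reached 1 FPKM, and none of the endothelial markers did. Of the colon markers CDX2 was called lower, at 1.63 FPKM with overexpression and 4.29 FPKM with vector, a log2 fold of −1.01 that became −0.80 relative to the median of all genes and no longer passed.

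Positions, exons and transcripts are from GENCODE 44 on hg38 and promoter windows from RefSeq on GRCh38.p14. All 9 members matched. Proteins were aligned globally with Biopython 1.88 (BLOSUM62, gap opening −10 and extension −0.5). Python 3.11.15, numpy 2.4.6, pandas 2.3.3 and matplotlib 3.10.9 were used. The code for the size rule was run on simulated pairs with little noise and planted changes larger than the rule. That run checks the code only and does not show how reliable a call is in these libraries.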

Additional observations from a re-analysis of the deposited data

How the results depend on the processing

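The alternatives were a pseudocount of 0.1, centring on the median fold, values rescaled to the library sum without TTC22, no filter, a stricter filter at a mean of 5 FPKM, and 4-fold as the size. Under these S100A2 lay between −2.10 and −1.64 for overexpression over vector and between 2.32 and 2.89 for knockdown over scramble. With 4-fold as the size it no longer passed in the plasmid comparison, at −1.85, and 0 members were lower there. The 84 alternative values of the 7 other measured members in the treated comparisons all stayed within the size used. A changed filter or size repeats the reported fold, so only the pseudocount, centring and rescaling could have moved these values. With 4-fold, S100A10 (1.02) and S100A16 (1.42) did not pass between the controls, and S100A14 reached 1.03 there with rescaling. Over all genes, calls fell to 69 higher and 88 lower (plasmid), 77 and 55 (siRNA), and 91 and 225 (controls) with 4-fold, and to 120 and 208, 123 and 106, and 330 and 910 with the stricter filter. A pseudocount of 0.1 gave 336 lower genes in the siRNA comparison. No paired analysis was possible because each group has 1 library, and for the same reason no library could be left out. Depth limits S100P and the silent S100 genes.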
